A study of Mus musculus with 12 samples.

Results

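Members of the interferon regulatory factor family (Irf1, Irf2, Irf3, Irf4, Irf7, Irf8 and Irf9) were followed by name in resting and activated mouse CD4+ T cells, with and without a calcineurin inhibitor. These 7 members were taken from 45321 genes whose transcripts were quantified, and all 7 were among the 14398 genes that passed the filter on low counts. The cells were total CD4+ T cells of C57BL/6 spleen, obtained by removing other cells, so the preparation holds naive, memory and regulatory cells together. Every group carried the same strain and no engineered allele, and the labels give neither the age of the mice nor whether cells of several mice were pooled. In the vehicle unstimulated group (ethanol_US) the cells had ethanol for 1 h and no stimulus. In the CsA unstimulated group (CsA_US) they had cyclosporin A (CsA) at 1 µM for 1 h and no stimulus. The vehicle stimulated group (ethanol_PI) had ethanol for 1 h and then phorbol 12-myristate 13-acetate (PMA, 10 nM) with ionomycin (1 µM) for 2 h, and the CsA stimulated group (CsA_PI) had CsA followed by the same stimulus. Each group had 3 libraries made by SMART-seq, and since nothing in the labels ties them to different mice, a p-value here reflects only how far these libraries spread, which may be technical.

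Interferon regulatory factors are transcription factors with a common tryptophan-rich DNA-binding domain that reads GAAA repeats, the core of interferon-stimulated response elements. Irf3 and Irf7 are activated by kinases downstream of nucleic acid sensors and switch on type I interferon genes, Irf9 joins Stat2 in a complex that carries the interferon signal to DNA, and Irf1 and Irf2 act on overlapping sites as activator and antagonist. Irf4 and Irf8 bind DNA weakly alone and pair with Batf and Jun proteins or with Ets factors; in T cells Irf4 is known as a factor induced through the antigen receptor and needed for effector differentiation. PMA and ionomycin imitate protein kinase C and calcium signals of that receptor, and CsA, bound to cyclophilin, blocks the phosphatase calcineurin and with it NFAT.

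The promoters of Irf1, Irf2, Irf4 and Irf8 are shown because Irf4 and Irf8 had the largest differences between groups and moved together, and because Irf1 and Irf2 are the paired activator and antagonist. Each line gives the 250 bases before the RefSeq transcription start on GRCm38.p6, read 5′ to 3′ on the plus strand, at chr11:53769764-53770013 for Irf1, chr8:46739495-46739744 for Irf2, chr13:30748983-30749232 for Irf4 and chr8:120736108-120736357 for Irf8. Capitals mark matches, on either strand, to the interferon-stimulated response element core (GAAA, any 2 bases, GAAA), the gamma-activated site (TTCNNNGAA) and the AP-1 site (TGANTCA).
Irf1: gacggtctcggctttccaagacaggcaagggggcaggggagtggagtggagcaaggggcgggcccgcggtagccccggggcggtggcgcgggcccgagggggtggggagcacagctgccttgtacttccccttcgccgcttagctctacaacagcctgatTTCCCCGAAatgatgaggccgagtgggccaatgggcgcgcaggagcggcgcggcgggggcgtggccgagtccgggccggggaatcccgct
Irf2: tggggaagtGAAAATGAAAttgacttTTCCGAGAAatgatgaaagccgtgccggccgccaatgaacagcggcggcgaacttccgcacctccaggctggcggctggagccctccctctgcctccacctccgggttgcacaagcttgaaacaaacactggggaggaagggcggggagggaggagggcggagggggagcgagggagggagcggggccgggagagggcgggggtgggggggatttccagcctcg
Irf4: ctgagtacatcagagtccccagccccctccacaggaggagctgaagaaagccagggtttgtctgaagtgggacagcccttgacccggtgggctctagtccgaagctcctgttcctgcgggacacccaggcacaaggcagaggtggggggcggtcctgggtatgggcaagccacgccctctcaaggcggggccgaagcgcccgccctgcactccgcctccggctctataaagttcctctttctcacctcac
Irf8: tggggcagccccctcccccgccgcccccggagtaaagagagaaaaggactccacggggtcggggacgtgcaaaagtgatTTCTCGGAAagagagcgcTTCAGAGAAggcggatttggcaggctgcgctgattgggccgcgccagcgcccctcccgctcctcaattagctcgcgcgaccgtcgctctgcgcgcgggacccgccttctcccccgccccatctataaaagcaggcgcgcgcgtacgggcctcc

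The gamma-activated site, an element of the interferon gamma response, matched in the windows of Irf1, Irf2 and Irf8, and in 7.02% of 32851 RefSeq promoter windows of the same length. The Irf1 match began 90 bases before the start, the Irf2 match 224 bases before it, and Irf8 held a pair of matches beginning 171 and 153 bases before it. The response element core matched only in Irf2 among the 7 members, beginning 241 bases before the start, and in 2.98% of all windows. It lay next to a match to the Ets-IRF composite (GGAA, any 2 bases, GAAA; 2.30% of windows), which overlaps it. The Irf4 window had no capital. The AP-1 site (6.75% of windows) and the AP-1-IRF composites, TGANTCA preceded by TTTC and any 4 bases (0.0974%) or directly by GAAA (0.10%), were in none of the 7 windows. The NFAT core GGAAA was in 4 of 7 (Irf1, Irf2, Irf3 and Irf8) and in 55.6% of all windows, and the loose NF-kB motif (GGG, any 5 bases, CC) was in 7 of 7 and in 45.8% of all windows. These matches are letters in a window and no binding was measured.

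Library totals lay between 10523816 and 18468044 estimated counts. Il2, the T cell growth factor and a check of both treatments, was at 1759 to 2078 CPM (counts scaled to library size by the edgeR TMM method) in ethanol_PI, at 25.4 and 23.3 CPM in CsA_PI 1 and 3, and at 0.330 to 2.59 CPM in all other libraries, the library labelled CsA_PI 2 among them. That library resembled the one labelled ethanol_US 2 more than any other: of all 66 pairs of libraries this pair had the smallest standard deviation of the log2 difference across genes (0.192, the next pair 0.357). Its 7 members stood at 94.0% to 112% of their level in ethanol_US 2. Its label was kept, its values are given apart, and every test was repeated on the 11 other libraries. All libraries numbered 2 also held more RNA of other cell types: 7 B cell markers summed to 508 to 979 CPM in them and to 72.6 to 152 CPM in the others, and 6 macrophage, monocyte and granulocyte markers to 196 to 217 CPM against 27.1 to 44.8 CPM. Tests were therefore also run on the libraries numbered 1 and 3 alone.

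On the per-length scale (TPM, summed over transcripts), which alone allows levels of different genes to be compared, Irf1 was the most abundant member in resting cells and Irf8 in stimulated cells. The order in ethanol_US was Irf1 (mean 594 TPM), Irf9 (146), Irf8 (112), Irf7 (89.4), Irf2 (55.8), Irf3 (29.8) and Irf4 (22.5). The ranges of Irf9, Irf8 and Irf7 overlapped in sequence, as did those of Irf3 and Irf4, and the other neighbours in this order did not overlap. The place of Irf8 came from ethanol_US 2, as it was at 46.8, 253 and 35.2 TPM in ethanol_US 1, 2 and 3. In numbers 1 and 3 it was below Irf7 (94.8 and 77.2 TPM) and Irf2 (57.1 and 55.6 TPM). In ethanol_PI the order was Irf8 (1811 TPM), Irf1 (655), Irf4 (549), Irf9 (42.1), Irf7 (41.0), Irf3 (32.5) and Irf2 (24.1), with overlap between Irf1 and Irf4 and between Irf9 and Irf7. Irf8 thereby moved from rank 1535 among all genes by mean TPM to rank 80, and Irf4 from rank 5225 to rank 310, while Irf1 was at ranks 249 and 248. The resting rank of Irf8 rests on a mean of 112 TPM with an SD of 123, raised by ethanol_US 2. Much of the Irf8 sum was in short transcripts. Those of 480, 597 and 764 bases held 15.2%, 22.1% and 27.7% of it in ethanol_PI, the last annotated as retained intron. Irf8-201 (2847 bases) held 33.5%, at 450, 906 and 502 TPM in ethanol_PI 1, 2 and 3. The main Irf1 transcript, Irf1-202, was at 434, 800 and 446 TPM there. In CsA_US the order of the members by mean TPM was that of ethanol_US, at 396 TPM for Irf1 and 8.67 TPM for Irf4. Irf8 was at 44.6, 144 and 39.1 TPM in CsA_US 1, 2 and 3. In numbers 1 and 3 it was again below Irf7 (80.7 and 61.5 TPM) and Irf2 (45.6 and 47.1 TPM). In CsA_PI 1 and 3, Irf8 (1212 and 1687 TPM), Irf1 (909 and 1133 TPM) and Irf4 (161 and 220.0 TPM) led, and Irf9, Irf2, Irf7 and Irf3 followed between 22.7 and 79.8 TPM. In CsA_PI 2 the order was that of ethanol_US 2, with Irf1 at 887 TPM, Irf8 at 246 TPM and Irf4 at 34.6 TPM.

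**Figure D1:**
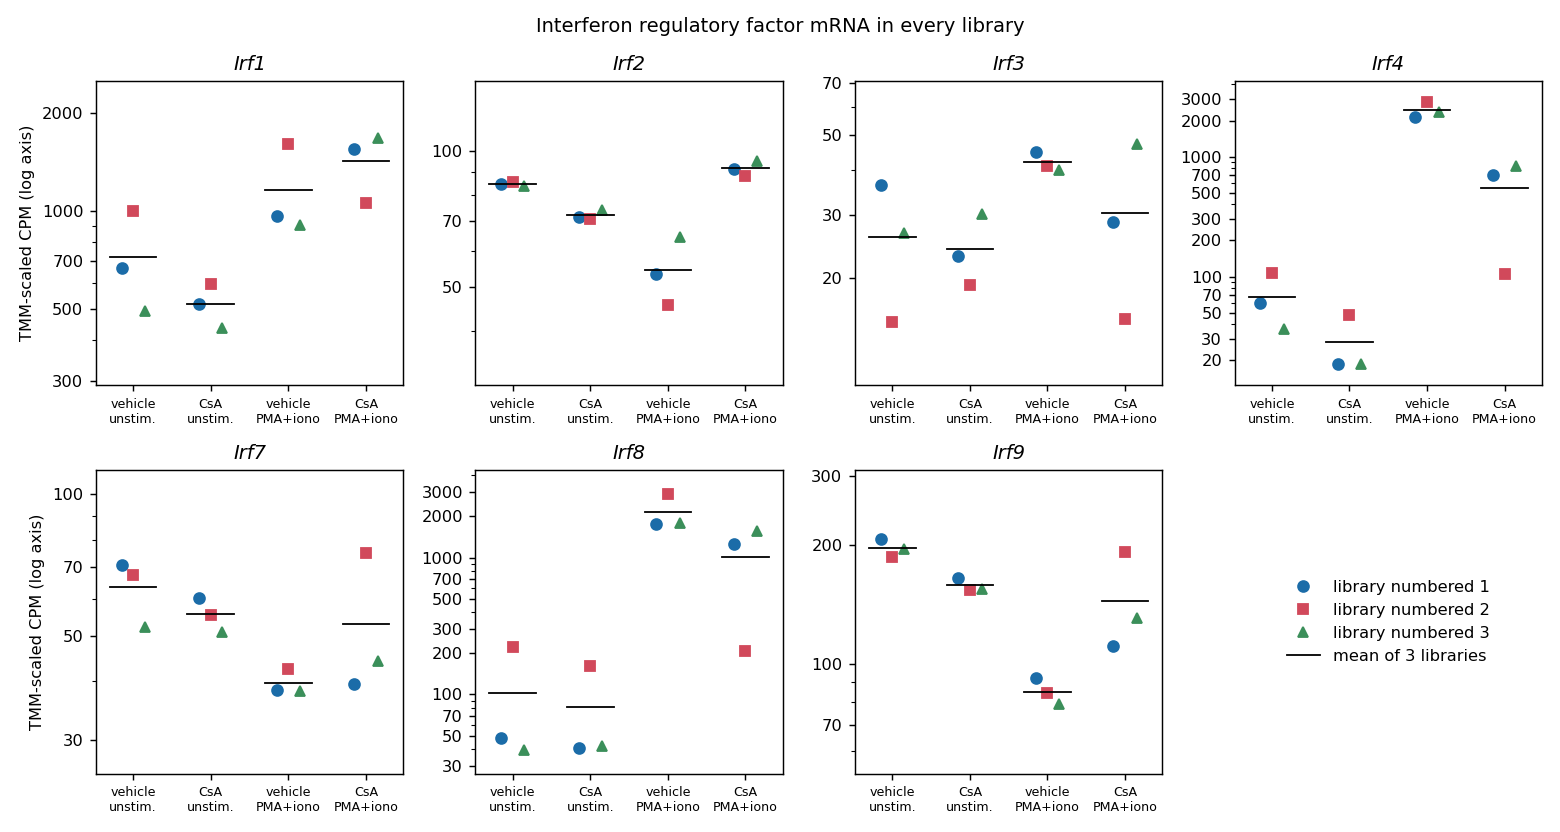
TMM-scaled CPM of each member in each of the 12 libraries on log axes with a separate range per gene; colour and shape give the library number and the line is the mean of 3 libraries. Irf4 and Irf8 of the 3 vehicle stimulated libraries lie above all others, and the library labelled CsA_PI 2 (square in the last column) lies at the level of ethanol_US 2 in every panel.

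Stimulation of vehicle-treated cells raised Irf4 and Irf8 and lowered Irf2, Irf7 and Irf9. Of the 7 members, 2 rose and 3 fell by edgeR at an adjusted p under 0.05, where 39.8% of all tested genes were called (20.1% higher and 19.7% lower). Without the library labelled CsA_PI 2 the same 5 members were called, against 43.7% of genes. The median log2 fold change of the members was 0.68, beside -0.02 over all genes. When counts were scaled by library totals alone, the median of all genes was -0.63 and the calls split into 1580 higher and 5437 lower, in place of 2892 and 2836; each of the 7 members kept its sign, with Irf1 at 0.09 and Irf3 at 0.06.

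Irf4 (ENSMUSG00000021356, chr13:30749226-30766976 on mm10, plus strand, no overlapping gene) was at 60.7, 106 and 36.5 CPM in ethanol_US 1, 2 and 3 and at 2123, 2849.9 and 2349 CPM in ethanol_PI 1, 2 and 3. The groups did not overlap, and the library numbered 2 was the highest of each. The log2 fold change was 5.17 ± 0.78 (SE; edgeR adjusted p = 0.000493), a 36.0-fold rise, and 5.48 ± 0.25 (adjusted p = 8.75e-08) in the libraries numbered 1 and 3. These are amounts of RNA in a mixed preparation, where more cells of a type cannot be told apart from more RNA per cell. The 2 listed transcripts of Irf4 differ by 3 bases at base 595 of the annotated transcript, shown here with the bases present in only one of them in capitals:
Irf4-201: tctgccagcccagCAGgttcataactaca
Irf4-202: tctgccagcccaggttcataactaca
Irf4-201 held 50.7% ± 6.53 of the gene's TPM in ethanol_US and 55.6% ± 2.29 in ethanol_PI (mean ± SD, n = 3). In CsA_US it held 31.4%, 72.4% and 30.1%, at a gene level of 6.02 to 14.0 TPM. With only 3 bases between the transcripts, few reads can tell them apart. The split is therefore an uncertain estimate, and whether both transcripts rose was not tested.

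Irf8 (ENSMUSG00000041515, chr8:120736358-120756694, plus strand) is known for B cells, dendritic cells and macrophages more than for CD4+ T cells. It was at 48.3, 221 and 39.5 CPM in ethanol_US 1, 2 and 3 and at 1764, 2918 and 1781 CPM in ethanol_PI 1, 2 and 3. All stimulated libraries lay above all resting ones, and the library numbered 2 was again the highest of each group. Irf8 rose by 4.39 ± 0.98 on the log2 scale (edgeR adjusted p = 0.00517), or 20.9-fold. By library number the difference was 5.19, 3.72 and 5.49 log2 units for numbers 1, 2 and 3, and the fit on numbers 1 and 3 gave 5.29 ± 0.19 (adjusted p = 3.32e-08). On the log2 scale the rise was thus smallest for number 2, which held more B cell marker RNA and had the highest resting level. In CPM the gap was widest for number 2, from 221 to 2918. The part of B cells in the rise was not tested. The gene lies inside the span of Gm20388, a read-through gene of the same strand.

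The B cell markers, none of which was at 0 in every library, summed to 105 to 950.2 CPM in ethanol_US and to 72.6 to 508 CPM in ethanol_PI, and 0 of the 7 were called. The 6 myeloid markers summed to 32.9 to 215 CPM and 34.9 to 203 CPM, with 0 of 6 called. The 7 dendritic cell markers together were at 22.0 to 32.1 CPM in ethanol_US, 45.6 to 63.8 CPM in ethanol_PI and 73.7, 33.9 and 57.8 CPM in CsA_PI 1, 2 and 3. Their sum was thus higher in every ethanol_PI library than in ethanol_US, as Irf8 was, but highest in CsA_PI 1, where Irf8 was below every ethanol_PI library. With stimulation 2 of the 6 tested, Zbtb46 (1.71 ± 0.32) and Itgax (1.14 ± 0.41), rose, where 20.1% of all genes were called higher, and the other 4 were not called: Xcr1 at 0.75, Flt3 at 0.28, Ccr9 at 0.07 and Siglech at -2.12. With CsA in stimulated cells 1 of the 6, Ccr9, was higher (1.49 ± 0.38). None of the 7 was at 0 throughout, and their part in the Irf8 result was not tested. The 4 CD8 T and NK cell markers summed to 27.2 to 40.9 CPM and 22.8 to 39.4 CPM, and 1 of them, Klrb1c, fell by 1.23. The 5 CD4 T cell markers summed to 1977 to 2436 CPM in ethanol_US, 1967 to 2303 CPM in CsA_US, 3123 to 3985 CPM in ethanol_PI and 2076 to 2444 CPM in CsA_PI. With stimulation Cd5 (2.03 ± 0.28) and Lck (0.92 ± 0.25) rose, Cd4 (-0.87 ± 0.23) and Cd3d (-0.88 ± 0.18) fell, and Cd3e was not called (-0.10 ± 0.21).

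**Figure D2:**
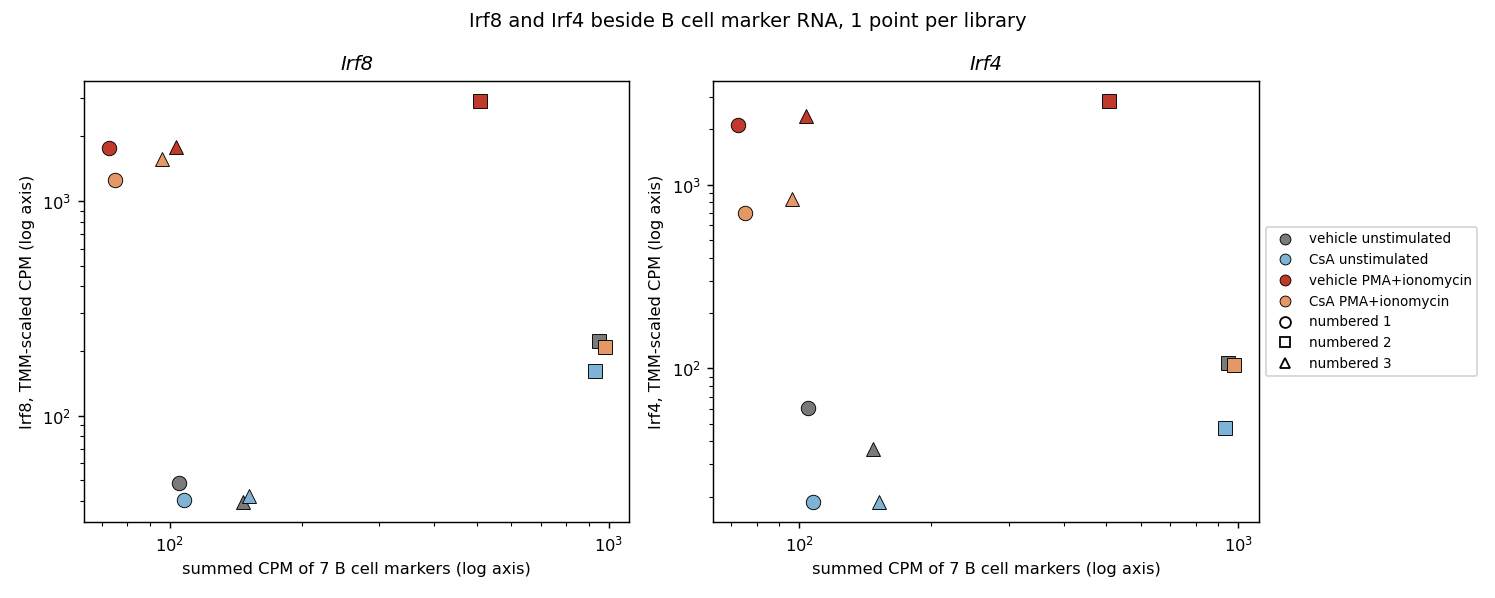
Irf8 and Irf4 (TMM-scaled CPM) against the summed CPM of 7 B cell markers, 1 point per library on log axes; colour gives the group and shape the library number. The 4 libraries numbered 2 stand to the right, from 508 to 979 CPM, and within each library number the vehicle stimulated point lies above the vehicle unstimulated one.

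The antagonist Irf2 (ENSMUSG00000031627, chr8:46739732-46847458, plus strand) was at 84.4, 85.2 and 83.8 CPM in the 3 ethanol_US libraries and at 53.4, 45.5 and 64.5 CPM in ethanol_PI. The resting libraries were nearly equal and all lay above the stimulated ones. Irf2 fell by 0.63 ± 0.15 on the log2 scale (edgeR adjusted p = 0.00519). Its family counterpart Irf1 (ENSMUSG00000018899, chr11:53770014-53778374, plus strand) was at 665, 1000.1 and 492 CPM in ethanol_US and at 962, 1600.1 and 904 CPM in ethanol_PI. These groups overlapped, because ethanol_US 2 exceeded ethanol_PI 1 and 3, although each stimulated library was above the resting one of its number. The log2 fold change of 0.68 ± 0.30 was not called with 12 libraries (adjusted p = 0.0887) and was called without ethanol_US 2 (0.99, adjusted p = 0.0253) and in the libraries numbered 1 and 3 (0.64 ± 0.17, adjusted p = 0.00962). With the library number as a block and without CsA_PI 2 it was also called (0.63, adjusted p = 0.00384).

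Irf9, the DNA-binding subunit of the interferon-stimulated gene factor complex (ENSMUSG00000002325, chr14:55603571-55610030, plus strand), was at 208, 187 and 196 CPM in ethanol_US and at 92.0, 84.1 and 78.8 CPM in ethanol_PI. The groups were far apart and tight. Irf9 fell by 1.21 ± 0.19 on the log2 scale (edgeR adjusted p = 0.000377), which is 2.32-fold. Irf7 (ENSMUSG00000025498, chr7:141262706-141266481, minus strand), the amplifier of type I interferon production, was at 70.8, 67.2 and 52.2 CPM and fell to 38.4, 42.5 and 38.2 CPM, without overlap (log2 fold change -0.68 ± 0.23, adjusted p = 0.0326). This call was lost when any 1 of ethanol_US 1, ethanol_US 2, ethanol_PI 1, ethanol_PI 2 or ethanol_PI 3 was left out (adjusted p 0.0605 to 0.0949). Only 20.4% ± 5.97 of Irf7 TPM in ethanol_US and 22.5% ± 4.78 in ethanol_PI was in transcripts annotated as coding, the rest in retained-intron and processed forms, and the count from coding transcripts alone gave -0.50 (adjusted p = 0.205). Irf3 (ENSMUSG00000003184, chr7:44997648-45002848, plus strand), the sensor-activated factor present before infection, was at 36.4, 15.2 and 26.7 CPM and at 44.9, 41.1 and 39.9 CPM. Its stimulated libraries all lay above the resting ones, which spread widely, and the log2 fold change of 0.69 ± 0.38 was not called (adjusted p = 0.171). Each stimulated library was above the resting one of its number, by 0.30, 1.43 and 0.58 log2 units, and with the library number as a block and without CsA_PI 2 the rise was called (0.70, adjusted p = 0.0299).

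Several members share their place with other genes: Irf1 overlaps Gm17334, Irf3 overlaps Bcl2l12, Irf7 overlaps Phrf1, Irf9 overlaps Rnf31 and Irf2 spans 3 annotated genes of the opposite strand. Gm17334, Bcl2l12 and Phrf1 lie on the strand opposite to the member they overlap, and Rnf31 lies on the same strand as Irf9. Whether the quantification used the strand is not given in the sources used here, and strand could not separate Irf9 from Rnf31. Reads of overlapping stretches may therefore have been assigned to either gene.

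CsA given before the stimulus raised Irf2 and Irf9 and lowered Irf4 relative to vehicle. Of the 7 members 2 rose and 1 fell, where 23.0% of tested genes were called (10.3% higher and 12.7% lower). Without the library labelled CsA_PI 2 the same 3 were called, against 22.5% of genes. All comparisons of stimulated cells share the vehicle stimulated libraries with the comparison above. By library totals the median of all genes was 0.40 in place of 0.06 and the calls split into 2870 higher and 1193 lower in place of 1485 and 1833; the 7 members kept their signs.

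Irf4 was at 698 and 831 CPM in CsA_PI 1 and 3 and at 104 CPM in the library labelled CsA_PI 2, beside 2123 to 2849.9 CPM in ethanol_PI. Every CsA library was below every vehicle library, and numbers 1 and 3 retained 28.6% and 34.0% of the vehicle mean. The log2 fold change was -2.17 ± 0.68 (edgeR adjusted p = 0.0420) with 12 libraries, -1.64 ± 0.50 (adjusted p = 0.0406) with 11, and -1.51 ± 0.21 (adjusted p = 0.000359) in the libraries numbered 1 and 3. With the library number as a block in all 12 it was -2.06 (adjusted p = 0.0705). It was also not called when 1 of ethanol_US 1, CsA_US 1, CsA_US 3, CsA_PI 1 or any ethanol_PI library was left out (adjusted p 0.0505 to 0.10), nor when only the groups compared entered the fit (-2.12, adjusted p = 0.0630) or when the filter on low counts was dropped (-2.12, adjusted p = 0.137).

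Irf8 stood nearer its vehicle stimulated level than Irf4 did. It was at 1248 and 1562 CPM in CsA_PI 1 and 3, which is 57.9% and 72.5% of the vehicle mean, and at 208 CPM in CsA_PI 2. Each CsA_PI library was below the lowest vehicle library at 1764 CPM. On the TPM scale the groups overlapped, with CsA_PI 3 (1687 TPM) above ethanol_PI 1 (1455 TPM) and ethanol_PI 3 (1608 TPM). The log2 fold change was -1.10 ± 0.86 (edgeR adjusted p = 0.411) with 12 libraries, -0.58 ± 0.88 (adjusted p = 0.713) with 11 and -0.30 ± 0.15 (adjusted p = 0.202) in the libraries numbered 1 and 3, none of them called. The difference between Irf4 and Irf8 in what CsA left was not tested.

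Irf2 was at 91.0, 88.1 and 95.2 CPM in CsA_PI 1, 2 and 3, all above the 45.5 to 64.5 CPM of ethanol_PI and the 83.8 to 85.2 CPM of resting vehicle cells. The log2 fold change was 0.75 ± 0.15 (edgeR adjusted p = 0.00345), and 0.81 ± 0.15 (adjusted p = 0.00185) with 11 libraries. Irf9 was at 111, 193 and 131 CPM, all above ethanol_PI, with CsA_PI 2 at the level of resting cells and the other pair between resting and stimulated. It rose by 0.77 ± 0.19 (adjusted p = 0.0111) with 12 libraries and by 0.54 ± 0.13 (adjusted p = 0.0104) with 11, and was not called without ethanol_PI 3 (0.72, adjusted p = 0.0537). Irf1 was at 1549 and 1672 CPM in CsA_PI 1 and 3 and at 1058 CPM in CsA_PI 2. The pair was above 2 of the 3 vehicle libraries, and ethanol_PI 2 stood between them. The difference of 0.30 ± 0.30 was not called with 12 libraries (adjusted p = 0.522) nor with 11 (0.52, adjusted p = 0.254); in the libraries numbered 1 and 3 it was 0.83 ± 0.17 (adjusted p = 0.00451), and with the block and without CsA_PI 2 it was 0.78 (adjusted p = 0.00528). Irf7 was at 39.6, 75.1 and 44.3 CPM and Irf3 at 28.6, 15.4 and 47.1 CPM, with differences of 0.42 ± 0.23 and -0.47 ± 0.38 that were not called (adjusted p = 0.220 and 0.420).

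**Figure D3:**
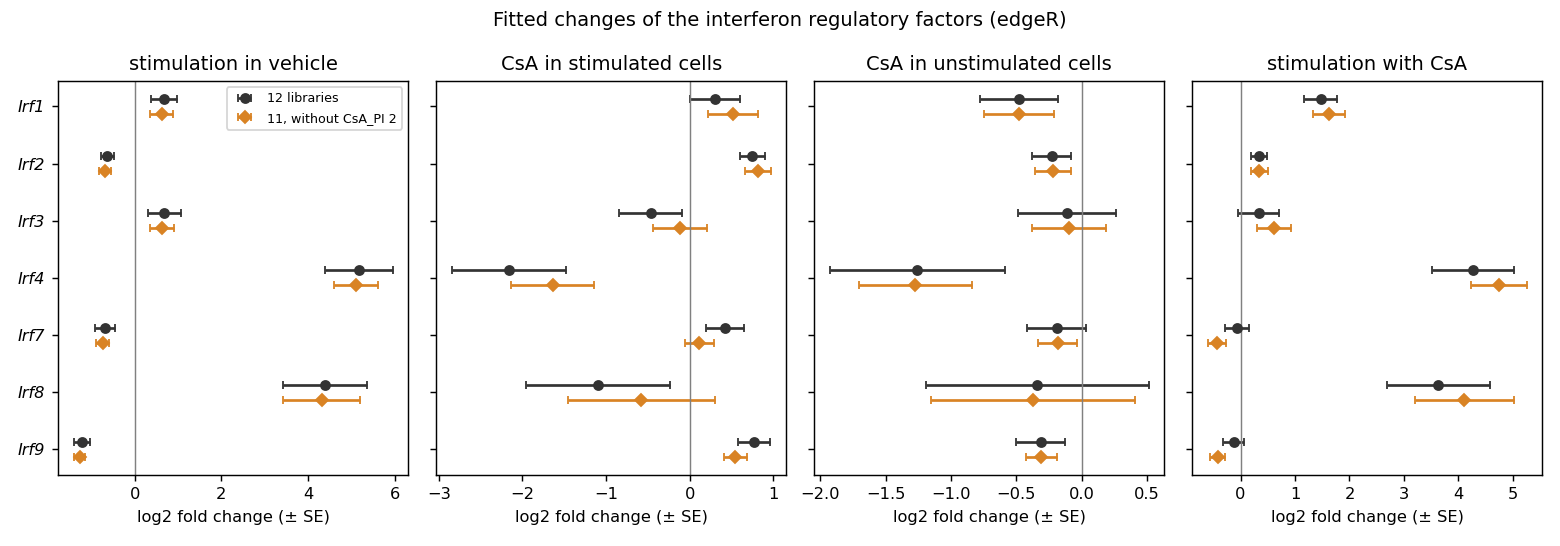
Fitted log2 fold changes of the 7 members with their SE in 4 comparisons, from all 12 libraries (circles) and from the 11 without the library labelled CsA_PI 2 (diamonds); the horizontal scale differs between panels. In the second panel Irf2 and Irf9 lie to the right of 0 and Irf4 to the left in both fits.

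For CsA in unstimulated cells none of the 7 members was called by edgeR, where 1 of 14398 genes (0.00695%) was called, and 0.0465% with 11 libraries. At an unadjusted p under 0.05 with 12 libraries there were 0 members and 465 genes, and DESeq2 called 0 members and 18 genes. In the libraries numbered 1 and 3 the unadjusted edgeR p was 7.27e-05 for Irf4 and 0.0648 for Irf9, and higher for the other members. With 11 libraries the log2 differences of Irf4 and Irf9 were -1.28 ± 0.43 and -0.31 ± 0.12 (edgeR adjusted p = 0.863 for both). Irf4 was at 18.7, 47.6 and 18.7 CPM in CsA_US 1, 2 and 3, each below the 60.7, 106 and 36.5 CPM of the vehicle library of its number, while the groups overlapped. Its log2 difference was -1.26 ± 0.67 (edgeR adjusted p = 1) with 12 libraries and -1.34 ± 0.22 (adjusted p = 0.118) in the libraries numbered 1 and 3. Irf2 (71.5, 70.5 and 74.2 CPM) and Irf9 (166, 154 and 155 CPM) were below every vehicle library, by -0.23 ± 0.15 and -0.31 ± 0.19, and neither was called (adjusted p = 1 for both). Irf1 (437 to 593 CPM), Irf7 (50.8 to 60.2 CPM), Irf8 (40.4, 161 and 42.1 CPM) and Irf3 (19.2 to 30.1 CPM) overlapped their vehicle groups.

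Under CsA the stimulus still raised Irf1 and Irf4. With 12 libraries these 2 of 7 were called, beside 5.28% of all tested genes (3.90% upward and 1.38% downward); with 11 libraries Irf1, Irf4 and Irf8 rose and Irf9 fell, where 28.7% of genes were called. Over all genes the count was 760 with 12 libraries, 4321 with 11 and 441 with the library number as a block. The Irf4 log2 fold change was 4.26 ± 0.75 (edgeR adjusted p = 0.0395) with 12 libraries and 4.74 ± 0.51 (adjusted p = 0.000116) with 11, and that of Irf1 was 1.47 ± 0.30 (adjusted p = 0.0395) and 1.62 ± 0.29 (adjusted p = 0.00134). Neither was called when any 1 of ethanol_US 1, CsA_PI 1, CsA_PI 3 or the CsA_US or ethanol_PI libraries was left out, nor by library totals, where the median of all genes was -0.21 and no member changed sign. Irf8 was at 3.63 ± 0.94 (adjusted p = 0.0526) with 12 libraries, 4.19 (adjusted p = 0.0491) with the block, and 4.11 ± 0.91 (adjusted p = 0.0116) with 11. In the libraries numbered 1 and 3 it rose by 5.05 ± 0.18 (adjusted p = 9.22e-08). Irf9 was at -0.13 ± 0.19 (adjusted p = 0.717) with 12 libraries and fell by 0.42 (adjusted p = 0.0359) with 11.

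The interaction (the response to stimulation with CsA, less the response with vehicle) was called for Irf2 and Irf9, 2 of 7 members, beside 9.72% of all tested genes (3.54% upward and 6.19% downward). With 11 libraries the same 2 members were called, beside 12.4% of genes. Irf2 differed by 0.98 ± 0.21 (edgeR adjusted p = 0.0126): it fell by 0.63 with vehicle and was at 0.34 ± 0.15 with CsA. Irf9 differed by 1.08 ± 0.27 (adjusted p = 0.0236), or 0.85 ± 0.18 (adjusted p = 0.00739) with 11 libraries. The Irf9 call was lost without ethanol_US 1, CsA_US 2, CsA_US 3 or any 1 of the ethanol_PI libraries (adjusted p 0.0513 to 0.0685). For Irf1 the interaction was 0.78 ± 0.42 (adjusted p = 0.286), 1.07 ± 0.24 (adjusted p = 0.0138) in the libraries numbered 1 and 3, and 1.20 (adjusted p = 0.00340) with the block and without CsA_PI 2. For Irf4 and Irf8 it was -0.91 ± 0.93 (adjusted p = 0.615) and -0.76 ± 1.20 (adjusted p = 0.766) with 12 libraries. With 11 libraries it was -0.36 (adjusted p = 0.796) and -0.21 (adjusted p = 0.944). In the libraries numbered 1 and 3 it was -0.17 ± 0.30 (adjusted p = 0.789) and -0.24 ± 0.22 (adjusted p = 0.565). By library totals the median of all genes in this comparison was 0.43 in place of 0.07, and the 7 members kept their signs.

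Across the 12 libraries Irf4 and Irf8 had the most alike profiles of the 21 member pairs (Pearson r of log2 CPM 0.970, and 0.970 over 11 libraries), followed by Irf7 and Irf9 (0.888 and 0.892) and Irf1 and Irf8 (0.860 and 0.879). Irf4 and Irf9 ran most opposite (-0.865 and -0.879), followed by Irf8 and Irf9 (-0.853 and -0.875). The points share their treatments and library numbers, so these values describe the set of libraries. Among 8020 genes averaging 10 CPM or more, the profiles closest to Irf4 were those of Lif (0.991), Rel (0.990) and Serpina3f (0.989), and the closest to Irf8 were Tuba1c (0.990), Tle3 (0.988) and Gem (0.986). The closest to Irf9 were Ifi209 (0.979), Itga4 (0.977) and Tmem129 (0.977), and to Irf7 Snap29 (0.967), Mfsd1 (0.964) and Lats2 (0.962). For Irf1 they were Ms4a4c (0.958), Setd5 (0.956) and Sypl (0.955), for Irf2 Birc2 (0.949), Golga3 (0.948) and Ermp1 (0.943), and for Irf3 Ndufab1 (0.912), Emc4 (0.908) and Myef2 (0.907). Over 11 libraries, Lif and Rel remained closest to Irf4 and Tuba1c, Tle3 and Gem to Irf8.

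Genes that work with these factors were counted in 8 lists, to be read beside the shares of all genes called: 20.1% higher and 19.7% lower with stimulation, and 10.3% higher and 12.7% lower with CsA in stimulated cells. Of Irf5 and the IRF2-binding corepressors, 1 rose and 1 fell of 4 with stimulation (median log2 fold change 0.76) and 1 rose and 1 fell with CsA in stimulated cells (0.38, or 2 higher and 1 lower at 0.58 with 11 libraries; the medians of all genes were -0.02 and 0.06). Irf2bp1 rose with stimulation by 1.90 ± 0.30 (edgeR adjusted p = 0.000341) and Irf2bpl fell by 1.78, and with CsA they moved the other way (-1.85 ± 0.30 and 2.13 ± 0.30). Irf5, a factor of myeloid and B cells, was at 65.2, 70.0, 143 and 72.3 CPM in the libraries numbered 2 and at 18.4 to 58.4 CPM in the others. With stimulation it was not called (1.16 ± 0.62, edgeR adjusted p = 0.164). Each ethanol_PI library was above the ethanol_US library of its number, at 45.0, 143 and 43.5 CPM against 18.4, 65.2 and 19.9 CPM.

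The partners of Irf4 and Irf8 on composite sites counted 7 higher and 0 lower of 10 with stimulation (median 1.51; 6 higher with 11 libraries), and 0 higher and 3 lower with CsA (median -0.80; 2 lower with 11). The Ikaros family members Ikzf3 and Ikzf1 rose by 1.51 ± 0.17 and 0.90 ± 0.17 and were lower with CsA, by -1.68 ± 0.18 and -0.80 ± 0.17. The AP-1 subunit Jun rose by 1.40 ± 0.24 and was lower with CsA with 12 libraries (-0.74 ± 0.23, adjusted p = 0.0377), but not called with 11 (-0.52, adjusted p = 0.111). Fos rose by 2.67 ± 0.44 and Batf by 2.52 ± 0.52. The Ets factors Spi1 and Spib were not called with stimulation (-0.32 ± 0.77 and -0.06 ± 1.27). Batf2, at 0 to 2.13 CPM over all libraries, was called higher with 12 libraries (edgeR adjusted p = 0.0486) and not with 11 (adjusted p = 0.0566).

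Interferons and their receptors counted 1 higher and 3 lower of 5 with stimulation (median -1.63) and 3 higher and 1 lower with CsA (median 1.63). Ifng, the interferon made by activated T cells, was at 9.61 to 16.8 CPM in ethanol_US, 1386 to 2052 CPM in ethanol_PI, 84.8 and 59.0 CPM in CsA_PI 1 and 3 and 12.8 CPM in CsA_PI 2. Its receptor chains moved the other way: Ifngr1 fell by 2.85 (edgeR adjusted p = 9.35e-06) and Ifngr2 by 1.70, and both were higher with CsA (2.38 ± 0.26 and 1.63 ± 0.17). Ifnar1, a chain of the type I interferon receptor, fell by 1.63 and was higher with CsA by 1.63 ± 0.17. Kinases, Stat2 and inhibitors of the pathway counted 5 higher and 1 lower of 7 with stimulation (median 1.02) and 0 higher and 3 lower with CsA (median -0.82, or -0.38 with 11 libraries). The kinase Jak2 rose by 2.07 ± 0.48 (adjusted p = 0.00517), and Stat2, the partner of Irf9, fell by 0.97 (adjusted p = 0.0154) and was not called with CsA (0.52 ± 0.28, adjusted p = 0.210). The inhibitors Socs1 and Socs3 rose by 3.0 ± 0.43 and 1.94 ± 0.30 and were lower with CsA (-1.61 ± 0.41 and -1.51 ± 0.30).

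Nucleic acid sensing genes, which act upstream of Irf3 and Irf7, counted 4 higher and 6 lower of 14 with stimulation (28.6% and 42.9%; median -0.34) and 2 higher and 4 lower with CsA (14.3% and 28.6%; median 0.21). The shares called higher lay near those of all genes, 20.1% and 10.3%. The RNA sensor Ifih1 rose by 2.45 ± 0.20 and the DNA sensor Cgas by 2.91 ± 0.37, and both were lower with CsA (-2.63 ± 0.20 and -2.12 ± 0.36). Ddx58, the gene of the sensor RIG-I, did the reverse, at -1.58 ± 0.20 with stimulation and 1.34 ± 0.20 with CsA (edgeR adjusted p = 8.77e-05 and 0.000511).

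Interferon-stimulated genes of the kind driven by the Irf9 complex counted 1 higher and 3 lower of 11 with stimulation (9.09% and 27.3%, near the 20.1% and 19.7% of all genes, which is no result about the list; median 0.00) and 5 higher and 0 lower with CsA (median 0.86), or 6 higher and 1 lower with 11 libraries (median 1.12). Ifit3, an antiviral effector, was at 3.33 to 4.56 CPM in ethanol_PI and at 23.5, 8.94 and 41.5 CPM in CsA_PI 1, 2 and 3; the resting libraries of both kinds lay between 5.32 and 13.9 CPM. CsA_PI 1 and 3 thus exceeded every other library. Its log2 fold change with CsA was 2.70 ± 0.50 (edgeR adjusted p = 0.00217), and Ifit1, at 34.6 and 45.1 CPM in CsA_PI 1 and 3 and 5.43 to 14.4 CPM elsewhere, was higher by 1.96 ± 0.49 (adjusted p = 0.0128). Rtp4 and Oasl2 fell with stimulation (-0.86 ± 0.18 and -1.47 ± 0.33) and were higher with CsA (0.82 ± 0.18 and 1.23 ± 0.33).

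Genes known to need Irf1 counted 4 higher and 2 lower of 8 with stimulation (median 0.98) and 2 higher and 1 lower with CsA (25.0% and 12.5%, the latter near the 12.7% of all genes; median -0.09, or 3 higher and 1 lower at 0.20 with 11 libraries). The immunoproteasome subunit Psmb8 fell by 1.34 (edgeR adjusted p = 0.000110) and was higher with CsA by 1.05 ± 0.18, as was Psmb9 (1.17 ± 0.19). Nlrc5, the activator of MHC class I genes, and Gbp2 rose with stimulation by 1.14 ± 0.20 and 1.46 ± 0.37. Casp1 was lower with CsA (-1.26 ± 0.28).

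Genes that Irf4 acts on in T cells counted 5 higher and 1 lower of 7 with stimulation (median 4.55) and 1 higher and 5 lower with CsA (median -2.28). Il21, the follicular helper cytokine, was at 132, 244 and 196 CPM in ethanol_PI and at 0.123 to 2.89 CPM in all other groups. It rose by 6.69 ± 0.55 (edgeR adjusted p = 7.41e-06) and fell with CsA by 7.08 (adjusted p = 1.20e-05). Il4 rose by 6.35 ± 0.47 and fell with CsA by 6.53. Prdm1, the gene of the repressor Blimp-1, rose by 1.97 ± 0.24, while Bcl6, its antagonist, fell by 1.54 and was higher with CsA (1.74 ± 0.23).

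**Figure D4:**
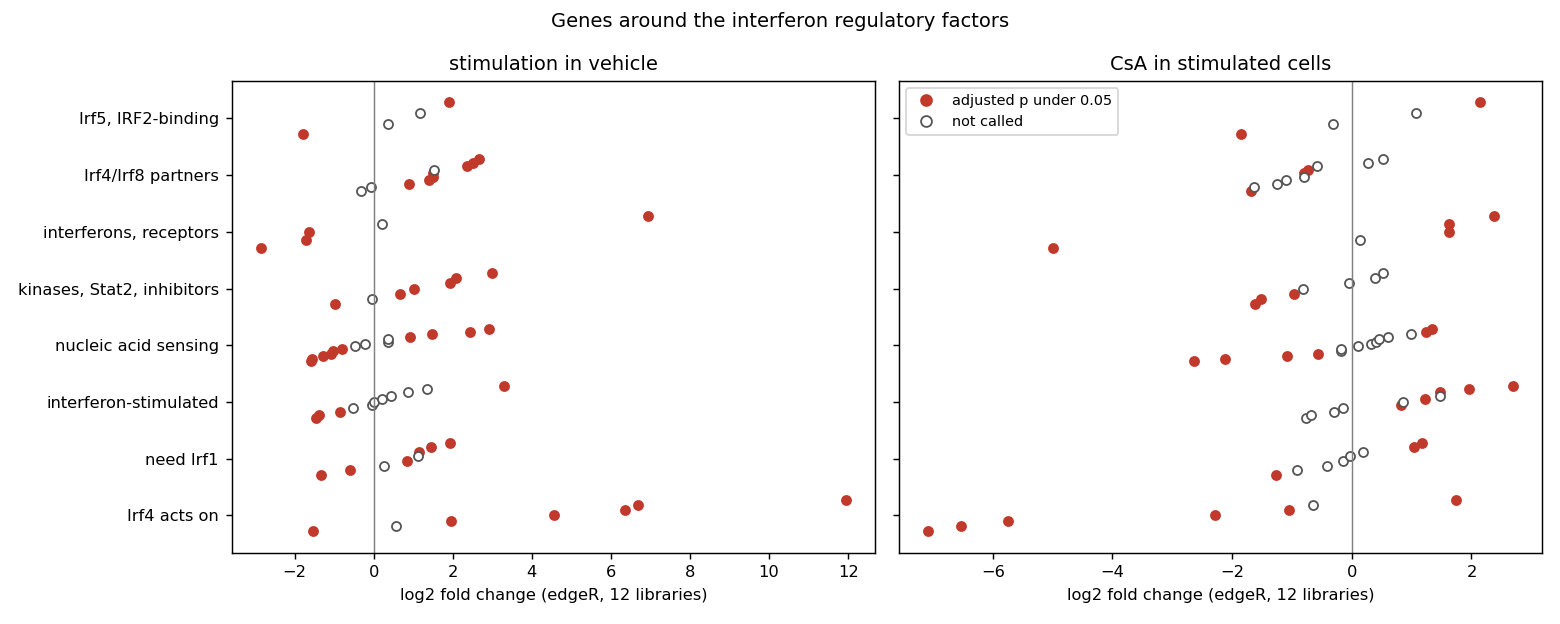
Fitted log2 fold changes of every tested gene of the 8 lists, 1 point per gene, for stimulation in vehicle-treated cells (left) and CsA in stimulated cells (right) with 12 libraries; filled points had an edgeR adjusted p under 0.05. The Irf4/Irf8 partners lie mostly right of 0 at left, and the interferon-stimulated genes called at right all lie above 0.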

How the data were processed

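RNA-seq of 12 libraries of mouse splenic CD4+ T cells was used, 3 in each of 4 groups named in the sample titles. Per the submitters' processing notes, cutadapt and kallisto were used with mm10; versions, the transcript set and the strand setting are not given in the sources used here. The deposited tables hold the authors' estimated counts per transcript, not scaled for depth, and, per the file headers, the authors' TPM, scaled for length and depth within a library. Transcript length and effective length (bases) are in the same tables per the file headers. Of 109617 transcripts, 108214 were matched to GENCODE vM21 (GRCm38) and 1403, with 0.494% to 0.628% of counts, were left out. Counts were summed per gene, rounded to whole numbers and tested with edgeR 4.0.16 in R 4.3.3 (TMM, minimum count 10 and total 15, robust quasi-likelihood, all 4 groups in 1 fit, Benjamini-Hochberg adjusted p under 0.05 over all genes tested). Each SE was taken from the F statistic of its test (the size of the log2 fold change over the root of F). The members, the gene lists and the tests were chosen with earlier results of these data known. All 7 members were named in every comparison, with the 3 most alike genes of each and up to 4 genes per list with the smallest adjusted p. Genes shown only by CPM, the marker genes, and Batf, Batf2, Spi1 and Spib were chosen after their values were seen. A pair of genes of these lists is not reported here and was left out of their counts. Fits were checked on simulated counts.

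Equal library numbers were examined as pairs: after subtracting group means, libraries of the same number correlated across genes at 0.143 to 0.319 (vehicle groups), 0.196 to 0.325 (unstimulated groups), 0.107 to 0.208 (stimulated groups) and 0.0333 to 0.123 (CsA groups). The pairing comes from the numbers in the titles, which do not say what they share, so the number entered as a block only in an alternative. Other alternatives were RLE scaling, library totals, DESeq2 1.42.0, no filter, only the groups compared, limma 3.58.1 on log2(TPM + 1) and log2(TPM + 0.1), and each library left out. Libraries numbered 1 and 3 alone, coding transcripts alone and the block without the library labelled CsA_PI 2 were added after seeing the data. Depth was 10523816 to 18468044 estimated counts per library, and reads carried no molecular identifiers. Promoter sequences are from RefSeq (GRCm38.p6), where 7 of 7 members were matched by symbol.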

Additional observations from a re-analysis of the deposited data

Results flagged for a closer look

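The stimulation effect on Irf2 and Irf9 differed between vehicle-treated and CsA-treated cells by the interaction test over the 12 libraries. The interaction was 0.98 on the log2 scale for Irf2 and 1.08 for Irf9. For Irf2 the 3 differences between equally numbered stimulated and unstimulated libraries were -0.66, -0.90 and -0.38 with vehicle and 0.35, 0.32 and 0.36 with CsA. The Irf2 value of 0.32 comes from the library labelled CsA_PI 2. Without that library the Irf2 interaction was 1.04 ± 0.21 (edgeR adjusted p = 0.00520). For Irf9 the 3 differences were -1.17, -1.15 and -1.31 with vehicle and -0.58, 0.32 and -0.24 with CsA, where the 0.32 again comes from the library labelled CsA_PI 2.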

How the results depend on the processing

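Each group had 3 libraries, and those numbered 2 held more marker RNA of other cell types. No called value changed sign under any alternative. Counts of called genes moved most for stimulation with CsA (760 genes and 2 members): library totals gave 5 and 0, only the groups compared 0 and 0, the replicate block 441 genes, DESeq2 1999 genes, limma on log2(TPM + 1) 49 and 1, on log2(TPM + 0.1) 29 and 0, and without a filter 5 and 0, libraries numbered 1 and 3 gave 4437 and 4, and the block without CsA_PI 2 gave 4831 and 4; leaving out 1 library gave 0 to 4321 genes and 0 to 4 members. For CsA in unstimulated cells (1 gene) DESeq2 gave 18, limma 0, 3 and 4 in the same order, libraries numbered 1 and 3 and coding transcripts 0 each, the block without CsA_PI 2 gave 15, and leaving out 1 library 0 to 7. For the interaction (1400 genes and 2 members) limma without a filter gave 607 and 1, the block without CsA_PI 2 gave 2274 genes, and leaving out 1 library 787 to 1865 genes and 1 to 2 members. Members called for CsA in stimulated cells (3) were 1 to 3, the 1 without ethanol_PI 3. The cause was not tested. With the library number as a block, the calls of Irf4 for CsA in stimulated cells (-2.06, adjusted p = 0.0705) and of Irf8 for stimulation with CsA (4.19, adjusted p = 0.0491) changed and those of the other members did not; with the block and without CsA_PI 2, Irf1 (0.63, 0.78 and 1.20 for stimulation in vehicle, CsA in stimulated cells and the interaction) and Irf3 (0.70 for stimulation in vehicle) were called as well. Without CsA_PI 2, same-number correlations of the stimulated groups were 0.118 and 0.0451.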
